A study of Mus musculus with 20 samples.

Results

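The genes described here code for proteins of the extracellular matrix, for the integrins that bind it, and for the proteases and protease inhibitors that act on it. They were chosen by name: collagens, laminins, nidogens, fibronectin, fibulins, the SPARC family, integrins, tissue inhibitors of metalloproteases (Timp), serpins, matrix metalloproteases (Mmp) and the Adam and Adamts families. A probe counted as a member with a single gene symbol of these families and a value on 2 or more arrays of every region, which 71 of the 15245 probes met. These 71 probes stood for 58 of the 7117 genes that had a probe with a single symbol, and 46 of the genes also passed the stricter filter of the test. A further 13 genes of the families had probes below the rule for members. The symbols chose by name only, so Itgb3bp, a protein named for binding an integrin, is among the members without being one.

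The study compared mice carrying a null mutation with wild-type mice. Each of 20 mouse cDNA arrays set amplified RNA of 1 brain region of a null mutant against a wild-type RNA pool from that region. Cortex, hippocampus, cerebellum and brain stem-diencephalon had 5 arrays apiece. Per region, null RNA was labelled as channel 1 on 3 arrays and as channel 2 on 2 dye swaps. The labels give no strain, age or sex, and no number of mice behind the pool. Arrays of a region with the same number were averaged as 1 replicate, which left 4 replicates in cortex and 3 in each other region, 13 in all. Cortex replicate 4 was a swapped array without a number and may repeat a numbered extract. The labels do not say that numbers stand for different animals, and the spread that the p-values measure may be technical.

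All values are null over wild type on the log2 scale, so the wild-type pool sits at 0 and has no spread of its own. This direction is only likely: neither the channel order of the deposited ratio nor its log base is given in the sources used here, and with the other order every sign below turns. Levels of tissue markers were not checked, because a ratio holds no level. A swapped cerebellum array (number 1) and a swapped brain stem-diencephalon array (number 2) were nearly identical (correlation 0.9952 over 6748 probes), so results are also given without this repeated array. The Y-linked gene Eif2s3y had ratios between -1.36 and -0.437 on arrays numbered 1, between 0.935 and 1.64 on arrays with another number or none, and 1.71 under both labels of the repeated array. Apart from the repeated array, the sign of this gene thus differed between arrays numbered 1 and the others. Under its cerebellum label, number 1, the repeated array had the sign of arrays with another number. As reported, it is averaged into cerebellum replicate 1 with an array at -0.77 for this gene. The part of sex in the results was not tested. In bulk tissue, fewer cells of a type and less RNA per cell cannot be told apart.

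The extracellular matrix of the brain is sparse between neurons and glia and dense in the basement membranes of vessels and meninges, where type IV collagen, laminins and nidogens form sheets. Integrins anchor cells to it. Metalloproteases of the Mmp, Adam and Adamts families cut matrix and cell surface proteins, and Timps inhibit them. Most serpins inhibit serine proteases, but Serpinh1 is a chaperone that folds collagen in the endoplasmic reticulum.

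Col4a1 and Col4a2, which code for the paired chains of the main type IV collagen, lie head to head on chromosome 8 of the mouse assembly GRCm38.p6. They are shown because both had fitted ratios below 0 in all 4 regions. Their promoter windows in RefSeq, from 250 bases before to 50 after the start, are given 5′ to 3′ on the strand of each gene. Col4a1 lies on the minus strand, window chr8:11312777-11313076, and Col4a2 on the plus strand, window chr8:11312555-11312854. Capitals mark the 78 bases that the windows share on opposite strands.
Col4a1: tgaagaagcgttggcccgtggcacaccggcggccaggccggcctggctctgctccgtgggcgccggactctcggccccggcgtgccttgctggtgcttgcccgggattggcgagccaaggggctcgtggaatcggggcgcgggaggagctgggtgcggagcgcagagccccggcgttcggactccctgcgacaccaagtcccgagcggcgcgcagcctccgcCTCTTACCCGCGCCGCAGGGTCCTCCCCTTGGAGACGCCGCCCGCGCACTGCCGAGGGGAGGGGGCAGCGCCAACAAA
Col4a2: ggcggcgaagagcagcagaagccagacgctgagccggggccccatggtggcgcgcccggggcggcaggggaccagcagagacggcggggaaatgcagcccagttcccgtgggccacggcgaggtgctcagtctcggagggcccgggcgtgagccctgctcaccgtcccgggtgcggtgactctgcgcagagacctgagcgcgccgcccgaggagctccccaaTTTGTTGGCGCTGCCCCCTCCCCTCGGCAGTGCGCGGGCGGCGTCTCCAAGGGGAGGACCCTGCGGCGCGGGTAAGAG
On both strands, CCAAT was found 1 time in the Col4a1 window and 1 time in the Col4a2 window. The match lay outside the shared bases in the Col4a1 window and ran across their edge in the Col4a2 window. The motif GGGCGG was found 1 time in the Col4a1 window and 3 times in the Col4a2 window, with 1 match in the shared bases, and TATAA in neither window. Of all 32851 RefSeq promoter windows, 37.4% held CCAAT, 35.7% GGGCGG and 24.9% TATAA.

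Over the mean of the 4 regions, 16 of the 46 tested genes passed an adjusted p of 0.05 (limma's moderated test, Benjamini-Hochberg over all 8319 features), which is 34.8% against 26.1% of all features. There were 7 genes higher in the null mutants, against a background of 13.2% higher, and 9 lower, against 12.9%. The serpins Serpinb1a and Serpinb1c were the highest. The collagen chaperone Serpinh1 and the basement membrane collagens Col4a2 and Col18a1 were lower, as were the gelatinases Mmp2 and Mmp9. For Col18a1 this holds for the tested probe, and a second member probe went the other way. The sizes were small: fitted means over the 46 genes ran between -0.32 and 0.45, with a median of -0.028 against 0.011 for all features. Most calls passed only with cortex replicate 4, the only replicate made of a swapped array alone. Without it 2 of the 46 genes passed, Serpinb1a and Serpinb1c, against 11.3% of all features, although the means of Col18a1, Col4a2, Serpinh1 and Timp2 were then -0.20, -0.20, -0.26 and 0.36, close to their values with it. Without the repeated array 9 passed, against 16.9% of all features. With replicates of the same number modelled as correlated between regions (a random block) 7 passed, against 17.3%. The calls of Adam17, Adam19, Adamts12, Adamts9, Itgb5, Mmp2, Mmp7, Mmp9 and Sparcl1 were then lost. The adjusted p-values below count the regions as independent, and may be too small if a number stands for the same animal across regions.

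**Figure D1:**
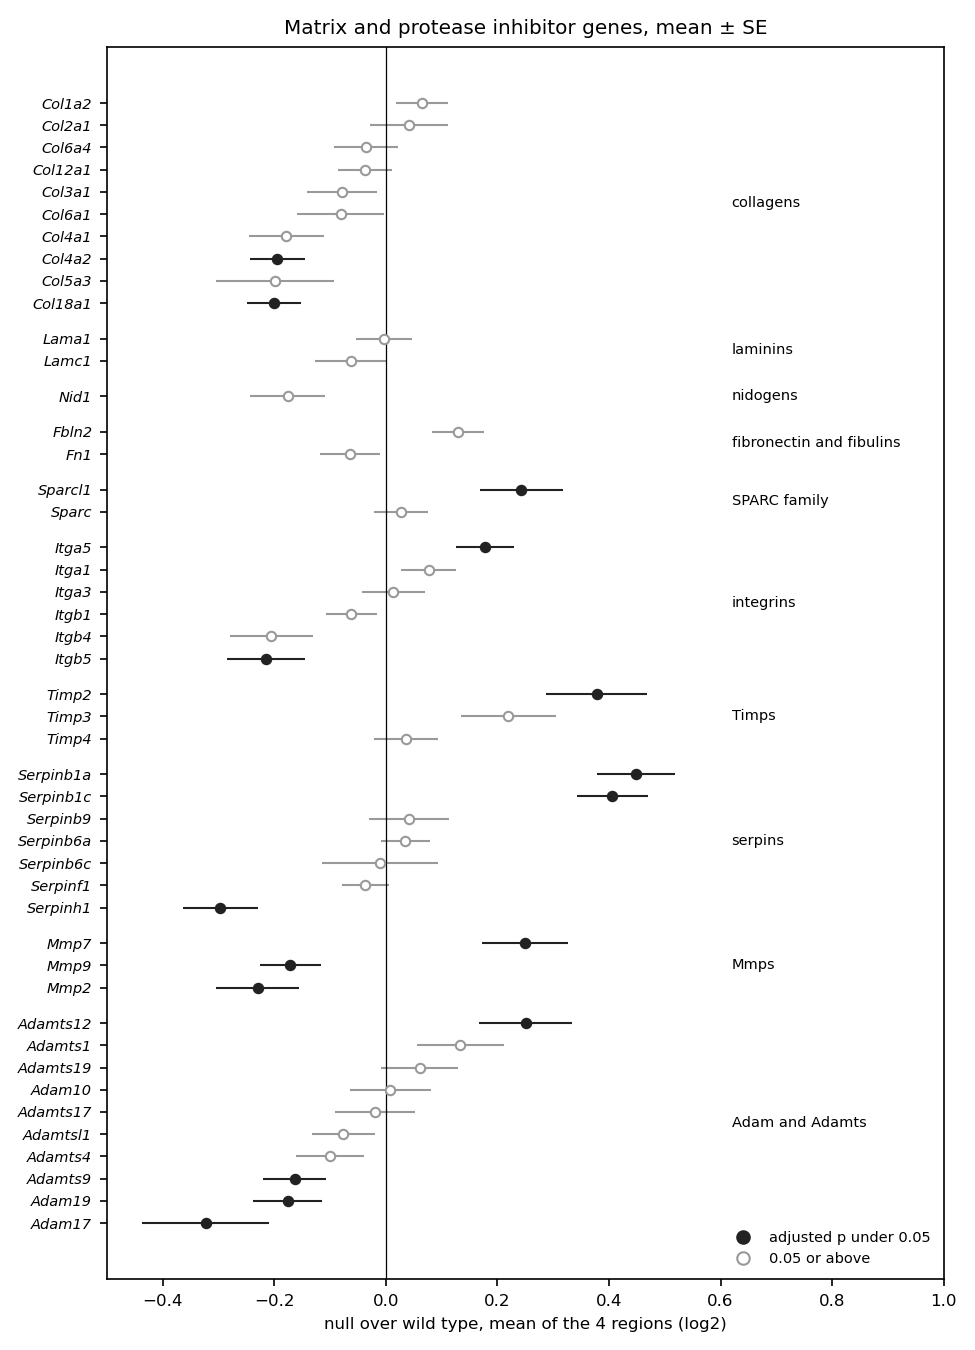
Fitted null over wild type ratio (log2, horizontal axis) in the mean of the 4 regions for the 46 tested genes, grouped by family and sorted within it. Points are means and bars SE, filled where the adjusted p was under 0.05: 7 genes above 0 and 9 below.

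Among the protease inhibitors, the serpins Serpinb1a and Serpinb1c rose. Serpinb1a is the mouse counterpart of an inhibitor of neutrophil elastase, and Serpinb1c is a close paralog with no other protein-coding gene between them on chromosome 13 of GRCm38.p6. Each was read by 1 tested probe. Whether these probes tell the paralogs apart was not tested, so the pair may not be separate results. Serpinb1a was at 0.74, 0.54 and 0.19 in cortex, with no value in replicate 3, at 0.12, 0.13 and 0.29 in hippocampus, at 0.66, 0.41 and 0.26 in cerebellum, and at 1.01, 0.77 and 0.30 in brain stem-diencephalon. It lay above 0 in 12 of 12 replicates. Its mean was 0.45 ± 0.07 (SE, n = 12, adjusted p = 0.00123, limma), a 1.36-fold ratio. Serpinb1c was at 0.026, 0.40, 0.67 and 0.53 in cortex, at 0.23, 0.58 and 0.31 in hippocampus, at 0.40, 0.43 and 0.46 in cerebellum, and at 0.17, 0.45 and 0.50 in brain stem-diencephalon. It lay above 0 in 13 of 13 replicates, and its lowest value in each region was that of replicate 1. Its mean was 0.41 ± 0.06 (SE, n = 13, adjusted p = 0.00107, limma). Serpinb1a was called in all 21 alternatives that measured it and Serpinb1c in all 22. Another Serpinb1c probe, below the rule for members, was above 0 on 8 of 12 arrays, with a median of 0.18 over them and 0.021 in hippocampus.

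The other serpins of that chromosomal cluster did not pass. Serpinb6a had a mean of 0.035, with a 95% interval of -0.060 to 0.13. Serpinb9 was at 0.042 with an interval of -0.11 to 0.20, and Serpinb6c at -0.010 with an interval of -0.23 to 0.21. Serpinf1, which codes for a secreted serpin without inhibitory activity known for its antiangiogenic action, was at -0.037 with an interval of -0.13 to 0.054. Of the 7 tested serpins, 2 rose, 1 fell and 4 missed the threshold, 42.9% called against 26.1% of all features.

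Serpinh1, the collagen chaperone, fell. It was at -0.17, -0.14, -0.76 and -0.32 in cortex, at 0.034, -0.48 and -0.35 in hippocampus, at -0.43, -0.52 and -0.44 in cerebellum, and at -0.016, -0.52 and -0.44 in brain stem-diencephalon. It lay below 0 in 12 of 13 replicates, with hippocampus replicate 1 as the exception. Its mean was -0.30 ± 0.07 (SE, n = 13, adjusted p = 0.00708, limma). It was called in 21 of 22 alternatives and missed the threshold without cortex replicate 4, at -0.26 with an adjusted p of 0.0508.

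Of the 3 Timps, Timp2 passed in the mean (33.3%, against 26.1% of all features), and this call depended on how the dye orientation was treated. Timp2 codes for a metalloprotease inhibitor that also takes part in the activation of Mmp2. Its replicates were at -0.15, -0.51, 0.13 and 0.87 in cortex, at 0.24, 0.031 and -0.85 in hippocampus, at 0.24, 0.46 and 0.028 in cerebellum, and at 0.36 and 0.38 in brain stem-diencephalon. They lay above 0 in 9 of 12 replicates and spread widely on both sides of 0 in cortex and hippocampus. The fitted mean, with the term for orientation, was 0.38 ± 0.09 (SE, n = 12, adjusted p = 0.0103, limma). Without that term it was 0.13 (adjusted p = 0.423), and without cortex replicate 4 it was 0.36 (adjusted p = 0.121). Timp3, which codes for a matrix-bound inhibitor, had a mean of 0.22 ± 0.08 (adjusted p = 0.07), and Timp4 one of 0.036 ± 0.06 (adjusted p = 0.676).

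The SPARC family codes for secreted matrix glycoproteins that shape how cells attach. Sparcl1, also known as hevin and secreted largely by astrocytes, rose. It was at 0.17, 0.34, 0.27 and 0.46 in cortex, at -0.52, 0.22 and 0.47 in hippocampus, at 0.25, 0.36 and 0.41 in cerebellum, and at 0.26, 0.41 and 0.30 in brain stem-diencephalon. It lay above 0 in 12 of 13 replicates, with hippocampus replicate 1 far below the others. Its mean was 0.24 ± 0.07 (SE, n = 13, adjusted p = 0.0287, limma), with a mean of 0.20 (adjusted p = 0.128) without cortex replicate 4 and an adjusted p of 0.0778 without the repeated array. Sparc itself, read by 4 probes, was at 0.028 ± 0.05 and did not pass.

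**Figure D2:**
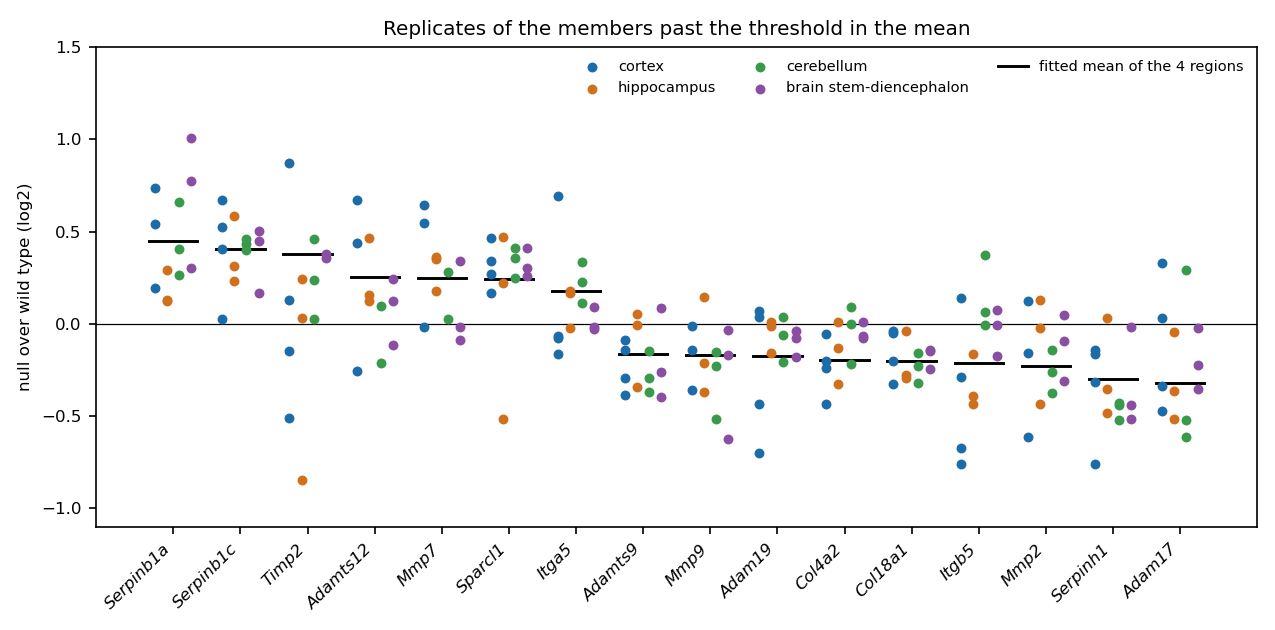
Null over wild type ratio (log2, vertical axis) of each replicate for the 16 genes past the threshold in the mean, coloured by region, with the fitted mean as a bar. The replicates of Serpinb1a and Serpinb1c all lie above 0 and those of Col18a1, by its tested probe, all below, while Timp2 runs between -0.85 and 0.87.

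Among the structural proteins, 8 of 10 tested collagens had a mean below 0 and 2 of them fell, 20% called against 26.1% of all features. Of the 8319 features, 3951 had a mean below 0. The median of the collagens was -0.080. Col4a2 was at -0.20, -0.24, -0.054 and -0.43 in cortex, at -0.13, -0.33 and 0.0096 in hippocampus, at 0.092, -0.22 and 0 in cerebellum, and at -0.069, 0.0093 and -0.075 in brain stem-diencephalon. It was below 0 in 9 of 13 replicates and in every cortex replicate, with a mean of -0.19 ± 0.05 (SE, n = 13, adjusted p = 0.0124, limma). Its partner Col4a1 lay below 0 in 13 of 13 replicates, between -0.67 and -0.042 with a median of -0.20, and had a mean of -0.18 ± 0.07 that missed the threshold (adjusted p = 0.0638). Another Col4a1 probe, below the rule for members, had a value on 7 arrays, 3 of them above 0, with a median of -0.18. Without cortex replicate 4 the mean of Col4a2 was -0.20 (adjusted p = 0.0731), and without the orientation term it was -0.12 (adjusted p = 0.0814). With that term the fitted ratio of Col4a2 in brain stem-diencephalon was -0.15, below all of its replicates there.

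Col18a1, which codes for a basement membrane collagen that is also a heparan sulfate proteoglycan and the source of endostatin, was at -0.037, -0.32, -0.051 and -0.20 in cortex. In the other regions it was at -0.041, -0.28 and -0.29 in hippocampus, -0.16, -0.32 and -0.23 in cerebellum, and -0.14, -0.15 and -0.25 in brain stem-diencephalon. It was below 0 in 13 of 13 replicates with a mean of -0.20 ± 0.05 (SE, adjusted p = 0.00888, limma), and without cortex replicate 4 its mean was -0.20 (adjusted p = 0.055). A second Col18a1 member probe that missed the filter of the test went the other way, with a fitted mean of 0.36 ± 0.07 and values above 0 on 11 of 15 arrays. When that probe was averaged in, the mean of Col18a1 was 0.017 (adjusted p = 0.846). The probes thus disagreed in sign, and the fall of Col18a1 holds for 1 of its probes.

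The fibrillar and other collagens did not pass. The chains of the fibrillar collagens Col1a2, Col3a1 and Col2a1 had means of 0.065, -0.079 and 0.042. Col5a3, a minor fibrillar chain, was at -0.20 ± 0.11, with replicates between -1.04 and 0.34. Col6a1, Col6a4 and Col12a1 lay between -0.081 and -0.036. The 2 tested laminin chains, Lama1 and Lamc1, had means of -0.0036 and -0.063 and did not pass. Nid1, which codes for a nidogen that links laminin to type IV collagen, had a mean of -0.18 ± 0.07 (SE, n = 11, adjusted p = 0.0746). Another Nid1 probe, below the rule for members, had a median of -0.52 over 11 arrays, with 0 of them above 0. Fn1, which codes for fibronectin, was at -0.065 ± 0.05, and Fbln2, a fibulin, at 0.13 ± 0.05 (adjusted p = 0.052).

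Markers of endothelium, whose cells rest on a basement membrane, were read on the same arrays. Of 13 listed markers 4 were tested, all 4 had a mean below 0 and 3 fell, against 26.1% of all features called in either direction. Pecam1 fell by 0.44, Cdh5 by 0.53 and Esam by 0.25 on the log2 scale. The adjusted p of Cdh5 was 0.0383 as reported, 0.247 without cortex replicate 4 and 0.0982 without the repeated array. Slc2a1, the glucose transporter of brain endothelium, was at -0.067 (adjusted p = 0.514). The 2 tested mural cell markers, Pdgfrb and Myl9, were at -0.041 and -0.062 and did not pass. Of 7 tested markers of meninges and fibroblasts, Igf2 fell by 0.24, Slc13a4 rose by 0.14, and the median was 0.032. The part of these cells in the collagen values was not tested.

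**Figure D3:**
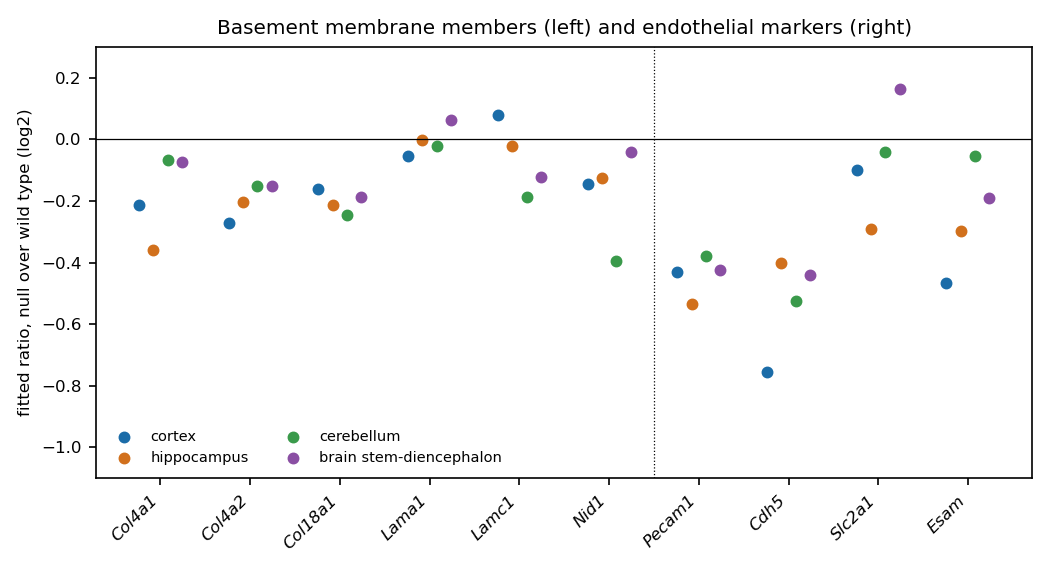
Fitted null over wild type ratio (log2, vertical axis) by region for 6 basement membrane genes, left of the dotted line, and 4 endothelial markers, right of it. Col4a1, Col4a2, Nid1 and, by its tested probe, Col18a1 lie below 0 in all 4 regions, as do Pecam1, Cdh5 and Esam.

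Integrins are receptors of an alpha and a beta chain. Of 6 tested chains, Itgb5 fell and Itga5 rose in the mean, 33.3% called against 26.1% of all features. Itgb5, a beta chain of vitronectin receptors, was at 0.14, -0.67, -0.29 and -0.76 in cortex, at -0.17, -0.44 and -0.39 in hippocampus, at 0.37, 0.063 and -0.0074 in cerebellum, and at -0.18, -0.0085 and 0.074 in brain stem-diencephalon. Its low values lay in cortex and hippocampus, and the mean was -0.21 ± 0.07 (SE, n = 13, adjusted p = 0.0379, limma). Without cortex replicate 4 it was -0.17 (adjusted p = 0.218). Itga5, the alpha chain of the fibronectin receptor, had a mean of 0.18 ± 0.05 (adjusted p = 0.0227, limma), although 7 replicates lay above 0 and 6 below. In cortex its replicates were at -0.16, -0.067, -0.078 and 0.69, so that replicate 4 alone was above 0, and without it the mean was 0.096 (adjusted p = 0.242). Without the orientation term the mean of Itga5 was 0.11 (adjusted p = 0.207). Itgb1, the beta chain shared by many integrins, was at -0.062 with a 95% interval of -0.16 to 0.037. Itgb4, which pairs with the alpha 6 chain, was at -0.21 ± 0.07 (adjusted p = 0.0554), and Itga3 was at 0.014.

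All 3 tested matrix metalloproteases passed in the mean, in different directions, where 26.1% of all features passed. The gelatinases Mmp2 and Mmp9, which cut denatured and type IV collagen, fell by 0.23 ± 0.07 and 0.17 ± 0.06 (SE, n = 12 each, adjusted p = 0.0382 and 0.0372, limma). Mmp2 replicates ran between -0.62 and 0.13 with a median of -0.15, and 9 of 12 were below 0. Mmp9 replicates ran between -0.62 and 0.14 with a median of -0.19, and 11 of 12 were below 0. Mmp7, matrilysin, rose by 0.25 ± 0.08 (n = 11, adjusted p = 0.0346), with replicates between -0.087 and 0.65 and 8 of 11 above 0. Without the repeated array Mmp2 and Mmp9 missed the threshold (adjusted p = 0.174 and 0.132). Without cortex replicate 4 all 3 did, with adjusted p between 0.0613 and 0.34 and means of -0.13 for Mmp2 and 0.16 for Mmp7. Mmp9 had no value in that replicate, and its mean stayed at -0.17.

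Of the 10 tested Adam and Adamts genes, 1 rose and 3 fell, 40% called against 26.1% of all features. None of these 4 calls held without the repeated array or without cortex replicate 4. Adamts12, which codes for a secreted protease, rose by 0.25 ± 0.08 (n = 11, adjusted p = 0.0444), and without the orientation term it was at 0.14 (adjusted p = 0.208). Adam17, the sheddase that releases tumour necrosis factor, fell by 0.32 ± 0.11 (n = 13, adjusted p = 0.0498), with replicates between -0.61 and 0.33. A second Adam17 probe that missed the filter had a fitted mean of 0.078, and with both probes averaged the mean was -0.17 (adjusted p = 0.0846). Adam19 fell by 0.18 and Adamts9, which cuts versican and aggrecan, by 0.16 (adjusted p = 0.0499 and 0.0474), and without cortex replicate 4 they were at -0.099 and -0.095. Adam10, another sheddase, was at 0.0078 with a 95% interval of -0.15 to 0.16. The remaining Adam and Adamts genes lay between -0.10 and 0.13.

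**Figure D4:**
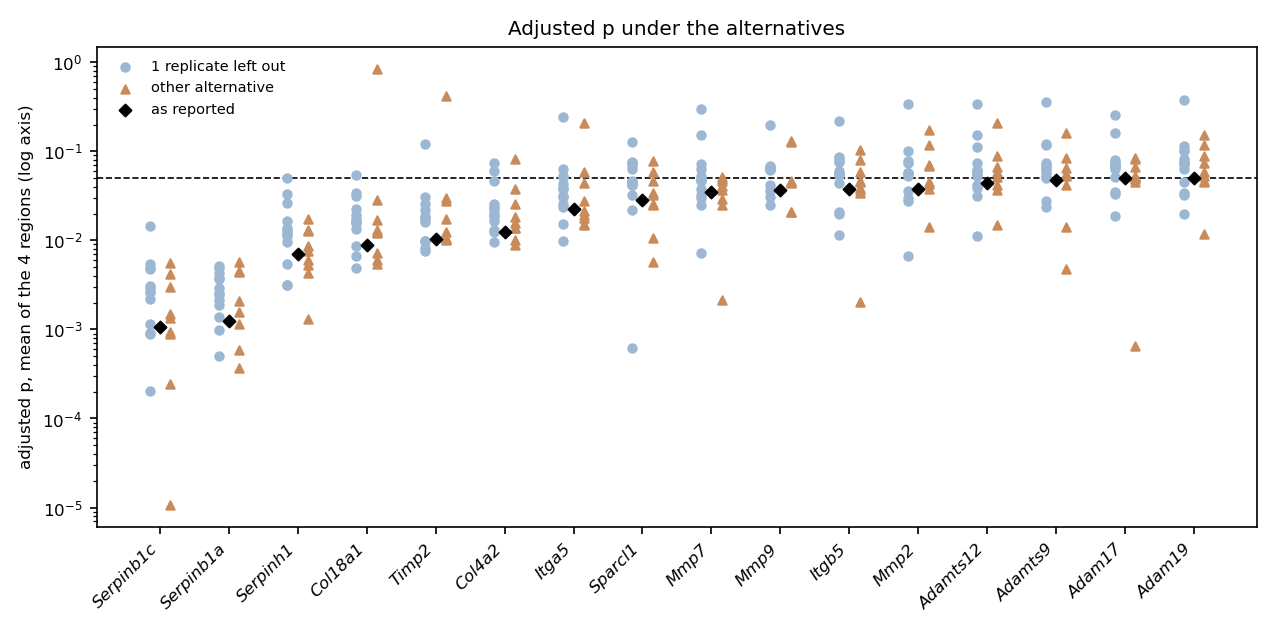
Adjusted p of the mean (log axis) for the 16 called genes as reported, with 1 replicate left out and under the other alternatives, with the 0.05 threshold dashed. Serpinb1c and Serpinb1a stay under the line throughout, and the 4 Adam and Adamts genes cross it in most alternatives.

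The sign of the fitted ratio was the same in all 4 regions for 19 of the 46 genes (41.3%, against 50.6% of all features), 7 above 0 and 12 below. A single sign in every replicate was met by 4 of them, Serpinb1a, Serpinb1c, Col18a1 and Col4a1, which is 8.7% against 4.9% of all features. For Col18a1 this holds for the tested probe. Neither share was tested.

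Within cortex 3 genes passed, 6.52% against 4.12% of all features (1.68% higher and 2.44% lower). Serpinb1c rose by 0.41 ± 0.10 (adjusted p = 0.0441), Itgb5 fell by 0.44 ± 0.11 (adjusted p = 0.0464) and Col4a2 fell by 0.27 ± 0.07 (adjusted p = 0.0473; SE, n = 4 each, limma). All 3 calls were lost when cortex replicate 2, 3 or 4 was left out, with adjusted p of 0.436 to 0.464 for replicate 4. Within hippocampus none of the 46 genes passed in limma, against 0.661% of all features, and 12 had an unadjusted p under 0.05, against 14.1% of all features. Within cerebellum none passed, against 3.07%, and 13 had an unadjusted p under 0.05, against 22.5%. Within brain stem-diencephalon none passed, against 0.361%, and 6 had an unadjusted p under 0.05, against 13.5%.

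These genes came nearest to the threshold. In hippocampus Itga1, the alpha chain of a collagen and laminin receptor, was at 0.38 ± 0.08 (adjusted p = 0.0564, limma, n = 3), followed by Col4a1 at -0.36 ± 0.11 (adjusted p = 0.156) and Serpinb1c at 0.39 (adjusted p = 0.172). In cerebellum Serpinb1c was at 0.44 ± 0.12, Timp2 at 0.58 ± 0.16 and Nid1 at -0.40 ± 0.11, with adjusted p of 0.0574, 0.0611 and 0.0639. In brain stem-diencephalon Serpinb1a was at 0.69 ± 0.14 (adjusted p = 0.0662), Adamts1, an aggrecan-cutting protease, at 0.44 ± 0.13 (adjusted p = 0.159) and Timp2 at 0.62 (adjusted p = 0.161). The fitted Timp2 values rest on the orientation term and lay above all of its replicates. Those ran between 0.028 and 0.46 in cerebellum and between 0.36 and 0.38 in brain stem-diencephalon. Without that term the mean of Timp2 over the 4 regions was 0.13.

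**Figure D5:**
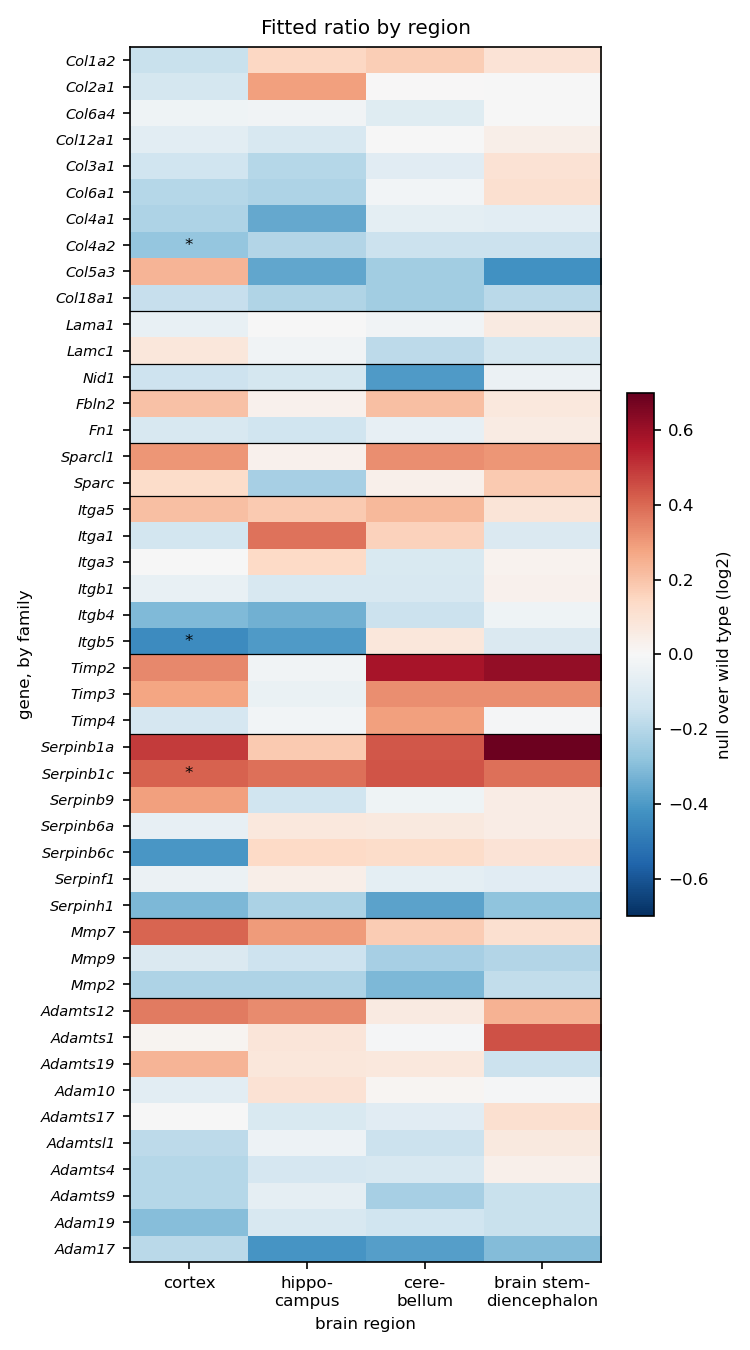
Fitted null over wild type ratio (log2, colour) of the 46 tested genes in each region, by family, with an asterisk where the adjusted p was under 0.05. The asterisks stand at Col4a2, Itgb5 and Serpinb1c in cortex.

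Differences between the regions were tested directly, and none of the 46 genes passed the F test or any of the 6 pairwise differences (limma). The F test called 0 of 8319 features, and the pairwise tests called 0.012% of features between cortex and hippocampus, 0.0481% between cortex and cerebellum and 0 in the other 4 pairs. In the F test, 351 features (4.22%) and 6 of the 46 genes had an unadjusted p under 0.05. The smallest p was that of Itga1 (adjusted p = 0.524, limma). Itga1 was at -0.30, -0.11, -0.11 and -0.045 in cortex, at 0.46, 0.36 and 0.27 in hippocampus, at 0.13, 0.11 and 0.13 in cerebellum, and at -0.19, -0.18 and -0.046 in brain stem-diencephalon. Its replicates in hippocampus and cerebellum were all above 0 and those in cortex and brain stem-diencephalon all below. The other 5 were Sparc, Itgb5, Timp2, Col1a2 and Adamts1, with unadjusted p between 0.024 and 0.0493 and adjusted p of 0.999 each. Of these, Sparc was at -0.35, -0.11 and -0.14 in hippocampus, and at 0.26, 0.17, 0.075 and 0.10 in cortex. These values average 4 probes that disagreed. Fitted on their own, the probes were at 0.26, -0.31, -0.39 and -0.27 in hippocampus and, in the same order, at 0.085, 0.22, -0.063 and 0.24 in cortex.

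Among other matrix genes, from a list of 143 of which 48 were tested, 4 rose and 11 fell in the mean, which is 31.2% called against 26.1% of all features. The cell surface and secreted proteoglycans gave the largest values. Spock2, which codes for the brain proteoglycan testican-2, fell by 0.48 and was below 0 in 13 of 13 replicates (adjusted p = 0.000358, limma). The heparan sulfate proteoglycans Gpc1, Sdc4 and Agrn fell by 0.52, 0.58 and 0.23, while Sdc2 rose by 0.24. The chondroitin sulfate proteoglycan Vcan rose by 0.22, and the small leucine-rich proteoglycan Bgn fell by 0.19. Cd44, a hyaluronan receptor, fell by 0.17, Ecm1 by 0.20, and the fibre-associated Mfap4 rose by 0.26. Cd44 missed the threshold in 12 of 22 alternatives and was at -0.045 without the orientation term (adjusted p = 0.589). Ecm1 was at -0.11 without cortex replicate 4 (adjusted p = 0.393), and Sdc2 at 0.16 without the repeated array (adjusted p = 0.0554).

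Of the genes that process collagen, Plod3, a lysyl hydroxylase, fell by 0.29 and Pcolce, an enhancer of procollagen cleavage, by 0.18, and the other 5 tested did not pass. Of the integrin adhesion genes, Zyx and Actn1, which code for proteins of focal adhesions, fell by 0.27 and 0.23, and the other 8 tested did not pass. Of the other proteases and inhibitors the lysosomal protease Ctsl rose by 0.28. In the order given, these groups had 28.6%, 20% and 8.33% called, against 26.1% of all features. Within cortex 12.5% of the 48 other matrix genes passed, against 4.12% of all features. There Vcan rose by 0.44, and Gpc1, Sdc4, Zyx, Actn1 and the cysteine protease inhibitor Cst3 fell by 0.72, 0.68, 0.47, 0.48 and 0.42. All 6 of these cortex calls were lost when cortex replicate 2, 3 or 4 was left out, with adjusted p of 0.286 to 0.455 for replicate 4, and with a variance trend. Within cerebellum 4.17% of them passed, near the 3.07% of all features. Spock2 and Pcolce fell by 0.69 and 0.40 in cerebellum. Both calls were lost when any cerebellum replicate was left out and without the repeated array (adjusted p = 0.114 and 0.199). In the mean, without cortex replicate 4, the adjusted p of Agrn, Vcan, Bgn, Sdc4, Cd44, Ecm1, Ctsl and Actn1 in the mean was between 0.074 and 0.393. Without the repeated array, that of Agrn, Bgn, Sdc2, Mfap4, Ecm1, Pcolce and Ctsl was between 0.0529 and 0.0891.

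The 12 members that missed the filter of the test are described by their array values only. Col6a5 was lowest, with a median of -0.45 over 12 arrays and 1 of them above 0. Adam15 had a median of -0.25 over 14 arrays, also with 1 above 0. The laminin chain Lama5 had a median of -0.23 over the 12 arrays of its member probe, and Itgb7, a leukocyte integrin chain, one of -0.18 over 15. The second nidogen, Nid2, had a median of 0.080 over 15 arrays. Col1a1, the partner chain of Col1a2, had a median of 0.010 over 17 arrays, and Col4a5 one of 0.11 over 14. Adam8, Col22a1, Itgb3bp, Lama3 and Serpina1e had medians between -0.091 and -0.031.

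Probes of a gene differed in the mean by up to 0.22 among the 6 tested genes with more than 1 probe in the test. Both Itgb1 probes differed by 0.011. The Lamc1 probes were at -0.16 and 0.048, with another that missed the filter at -0.39. Fitted on its own, a single probe of Timp3, of Sparc and of Lamc1 passed in the mean, at 0.30, 0.15 and -0.16. Their adjusted p was 0.0453, 0.0452 and 0.0452 (limma), while the other tested probes of these genes did not pass.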

How the data were processed

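The authors deposited log ratios of the 2 channels per probe, already centred near 0, which were read as log2 values (base not given in the sources used here). Probes were named through the platform annotation and RefSeq names of GRCm38.p6. Each array was centred on its median, swapped arrays were multiplied by -1, and arrays of a region with the same number were averaged. A feature, a gene or a probe without a single symbol, needed 3 or more values per region, with both orientations. Tested probes of a gene were averaged. Between 6793 and 13963 probes had a value per array. Precision is limited by the number of arrays.

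A linear model with a term per region and the orientation of the arrays was fitted to each of 8319 features and moderated with limma 3.58.1 in R 4.3.3 (8 residual and 6.04 prior degrees of freedom). p-values were adjusted by Benjamini-Hochberg over all features, at 0.05. The code was tested on simulated data.

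The members and lists were chosen with earlier results of these data known. Named are members called in the mean, a region or between regions, the 4 smallest p of each family, the 3 smallest of each region, and the other matrix genes called. Members beyond this rule were named, after their values were seen, to account for each family. Replicates of one number correlated between regions at 0.129 to 0.654, except cerebellum 2 with brain stem-diencephalon 2, which holds the repeated array, at -0.104. The rule asked for every such pair to correlate, so numbers were not taken as pairs and regions counted as independent. On channel 1 arrays, Eif2s3y was below 0 for number 1 and above 0 for the other numbers in all 4 regions. Whether a number stands for the same animal across regions was not tested. If it does, the p-values of the mean may be too small, and the 7 calls under the random block are the safer count. The targeted gene is not reported here.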

Additional observations from a re-analysis of the deposited data

Results flagged for a closer look

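Itga5 in cortex had 1 replicate far from the others. Replicate 4, the swapped array without a number, was at 0.69, against -0.16 to -0.067 in the other 3, and the gap was 0.89 of the whole range. Of the 30 members named by rule, 21 had 4 cortex replicates and were examined in this way, and chance alone would mark about 1 in 20. The cause was not tested.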

How the results depend on the processing

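Counts of members called moved with several settings, and the causes were not tested. In the mean, 16 of 46 as reported, the count was 9 with arrays scaled to one spread, 9 without the repeated array and 7 with the replicate number as a random block (replicate block, correlation 0.232). The 9 calls lost under that block were Adam17, Adam19, Adamts12, Adamts9, Itgb5, Mmp2, Mmp7, Mmp9 and Sparcl1. The count was 11 without the orientation term, 8 of them among the 16, and 21 without the channel 1 arrays of number 1. Before swaps were turned, 72.2% of member probes had opposite signs in the 2 orientations in cortex and 48.1% in brain stem-diencephalon, against 61.9% and 45.5% of all tested probes. The count in the mean ran between 2 and 18 with 1 replicate left out, the lowest without cortex replicate 4, and removing replicate 2 of cerebellum, brain stem-diencephalon or hippocampus gave 5, 6 or 7. In cortex, 3 as reported, it was 1 with values as deposited, 0 with scaled arrays, 0 with the filter of 2 arrays, 1 without the orientation term, 0 with a variance trend and robust moderation, 8 without the channel 1 arrays of number 1, 4 with the replicate block, and 0 to 9 with 1 replicate left out. In hippocampus, cerebellum and brain stem-diencephalon, 0 as reported, it was 2, 6 and 2 without those number 1 arrays and 1, 2 and 1 with the replicate block. With 1 replicate left out it was 0 in hippocampus, 0 to 2 in cerebellum and 0 to 1 in brain stem-diencephalon, where it was also 1 without the orientation term. The F test called 0 members in every setting. Signs turned for Col18a1 (0.017 with the filter of 2 arrays), Serpinf1 (0.024 without the orientation term) and Timp4 (-0.017 without the repeated array). Lama1 turned to 0.0036 with values as deposited, 0.0029 with the replicate block, and, with 1 replicate left out, ran between -0.044 and 0.037: 0.0069 and 0.0073 for cortex 2 and 3, 0.0018 for hippocampus 1, 0.0077 for cerebellum 3 and 0.037 for brain stem-diencephalon 1. Testing each probe on its own called 18 of 54 member probes in the mean and is not among the alternatives counted per gene. The opposite channel order turns every sign and needs no new fit. Where a region is left with 2 replicates, they share the spread of the other regions.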

Other observations

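In cerebellum, 10 of 12 tested genes of the list of other proteases and inhibitors had a ratio above 0, against 4298 of 8319 features. Their median was 0.25 against 0.0093 for all features. The lysosomal cathepsins Ctsl, Ctsd, Ctsc, Ctsz and Ctsb were at 0.49, 0.40, 0.38, 0.31 and 0.28, and Cst3, which inhibits cathepsins, at 0.36. None of the 12 passed in limma in cerebellum, and 5 had an unadjusted p under 0.05, against 22.5% of all features. The repeated array is part of cerebellum replicate 1, and without it the features called in cerebellum went from 255 to 48. In cortex the same list had 8 of 12 genes below 0, against 4162 of 8319 features. Cst3 was lower there at -0.42 (adjusted p = 0.0234, limma), a call lost when cortex replicate 2, 3 or 4 was left out. The 4 tested microglia markers, which include the C1q chains, lay between 0.031 and 0.58 in cerebellum and between -0.33 and -0.18 in cortex. None passed the threshold, and 3 and 2 of them had an unadjusted p under 0.05, against 1873 and 2306 of the 8319 features. Their part in the cathepsin values was not tested.

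The erythrocyte marker Hbb-b1 was at 0.56 in the mean (adjusted p = 0.00297) and the neuronal marker Tubb3 at -0.66 (adjusted p = 0.00123), while Nefl, another neuronal marker, was at -0.046 (adjusted p = 0.674). Ttr, the marker tested for choroid plexus, was at -0.31 in the mean, with -1.05 in cerebellum and 0.68 in hippocampus.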
